A study of Mus musculus with 9 samples.

Results

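The 9 genes described here belong to the uptake, binding, synthesis and breakdown of retinoids, the vitamin A derivatives, or, as Aldh1a7, to a family that takes part in it. They are Stra6, Rdh10, Dhrs3, Aldh1a2, Aldh1a7, Crabp1, Crabp2, Cyp26a1 and Cyp26b1, and they were found by exact symbol among the 38197 symbols of the deposited tables, of which 23122 had a count above 0. All 9 also passed the filter on low counts that left 14742 genes for testing. The cells were wild-type mouse embryonic stem cells of strain 129 (line E14.1), grown as a monolayer and directed toward ventral hindbrain neural stem cells (NSCs). Every culture received all-trans retinoic acid (RA) and SAG, an agonist of Smoothened, from 0 to 3 days in differentiation conditions (DDC). The cells were then sorted on magnetic beads for the progenitor surface protein prominin-1. Polyadenylated RNA was sequenced at 4.5DDC, 5.5DDC and 6.5DDC, with 3 libraries per time point. The labels end the treatment at 3 days, whereas the methods place the change to medium without these agents somewhat later, and by either source all libraries were taken after the added RA had been withdrawn. Another label field gives the same times as 4, 5 and 6 days. All groups derive from the same stem cell line, no culture without RA is among these libraries, and the labels do not say whether the replicates were separate cultures, so the p-values below measure the spread between libraries, which may be technical.

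Cells import retinol through the membrane receptor STRA6, and the dehydrogenase RDH10 oxidizes it to retinal, a step that DHRS3 reverses. Aldehyde dehydrogenases of the ALDH1A family, chiefly ALDH1A2 in the early embryo, oxidize retinal to RA, the form that enters the nucleus and acts through the RAR and RXR receptors. CRABP1 and CRABP2 hold RA in the cytoplasm, and the cytochromes CYP26A1 and CYP26B1 degrade it. In the embryonic hindbrain, RA made in the flanking mesoderm and removed by CYP26 enzymes patterns the tissue along its length.

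The positions below are those of the GENCODE M21 annotation on GRCm38, the build of the deposited files, and all 9 are protein-coding genes. Stra6 lies at chr9:58063788-58153996 on the plus strand and Rdh10 at chr1:16105774-16133734 on the plus strand. Dhrs3 lies at chr4:144892827-144928209 on the plus strand. The dehydrogenase genes Aldh1a2 and Aldh1a7 lie at chr9:71215789-71296243 on the plus strand and chr19:20692953-20727562 on the minus strand. Crabp1 and Crabp2 lie at chr9:54764748-54773110 and chr3:87948666-87953376, both on the plus strand, so that Crabp1, Stra6 and Aldh1a2 share a chromosome. The cytochrome genes are at chr19:37697798-37701536 on the plus strand for Cyp26a1 and chr6:84571414-84593908 on the minus strand for Cyp26b1. No exonic base of any of the 9 overlapped an exon of another gene on either strand. Of the windows of 50 bases in Aldh1a7 transcripts, 7.49% also occur in another gene, mostly Aldh1a1, so that some reads of this pair may not be separable, and for the other 8 genes the share was 0%.

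Promoters were read from RefSeq (GRCm38.p6), which gave a window of 250 bases before and 50 after the start for 7 of the 9 genes, with Crabp2 and Rdh10 not matched. The windows were searched on both strands for direct repeats of the half-site AGGTCA, in which its variants AGTTCA as well as GGGTCA as well as GGTTCA were also allowed, the kind of element that RAR and RXR dimers bind. A pair spaced by 5 bases (DR5) occurred in 32 of all 32851 promoter windows (0.0974%), and among the 7 genes only in that of Cyp26a1. Pairs spaced by 1 or 2 bases occurred in 0.222% and 0.268% of windows and in 0 of the 7 genes. A single half-site is common, at 43.7% of windows, and was found for Stra6, Cyp26a1 and Aldh1a7. The 150 bases before the start are shown for Cyp26a1 (chr19:37697658-37697807), which holds the repeat, for Crabp1 (chr9:54764598-54764747), which had the lowest adjusted p of the 9 from 4.5DDC to 6.5DDC, and for Aldh1a2 (chr9:71215639-71215788), which differed most by replicate number. All 3 are read on the plus strand, 5′ to 3′, with the half-sites of the repeat in capitals.
Cyp26a1: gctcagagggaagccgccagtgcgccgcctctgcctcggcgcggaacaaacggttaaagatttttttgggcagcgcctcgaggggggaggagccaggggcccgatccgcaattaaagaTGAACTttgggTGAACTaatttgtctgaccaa
Crabp1: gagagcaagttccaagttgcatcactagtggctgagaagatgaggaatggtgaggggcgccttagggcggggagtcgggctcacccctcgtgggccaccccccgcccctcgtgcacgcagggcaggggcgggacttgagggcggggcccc
Aldh1a2: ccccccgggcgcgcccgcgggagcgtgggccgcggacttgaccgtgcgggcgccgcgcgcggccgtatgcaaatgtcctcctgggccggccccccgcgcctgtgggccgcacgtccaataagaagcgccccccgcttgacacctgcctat
The repeat of Cyp26a1 begins 32 bases before the start and reads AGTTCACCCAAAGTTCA on the minus strand. The window of Aldh1a2 is 76% G and C with 23 CG dinucleotides, against 68.7% and 9 for Crabp1 and 57.3% and 11 for Cyp26a1. These matches describe the letters only.

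The libraries held between 11066572 and 25506192 counts, and a gene was taken as detected above 3 counts, which equals 0.118 to 0.271 CPM (reads scaled to the library total). Replicate 1 of each time point stood apart from replicates 2 and 3. The chi-square of the counts per gene was 38.5 to 67.4 for pairs that held replicate 1 and 31.9, 2.58 and 25.5 for replicates 2 and 3 at 4.5DDC, 5.5DDC and 6.5DDC, where sampling alone gives about 1. Of 10 progenitor markers, Prom1, which encodes the sort antigen, was at 62.8 to 207 FPKM and Sox2 at 78.2 to 96.0 FPKM over the 9 libraries, while Sox3 was at 1.44 to 14.4 FPKM and Pax6 at 0.719 to 7.21 FPKM. Neuronal transcripts were present as well (Map2 at 46.1 to 199 FPKM). Pou5f1 and Nanog were at or below 0.606 FPKM in all 9 libraries.

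Levels are given as FPKM, which divides by transcript length and so allows genes to be compared with each other. At 4.5DDC the order was Crabp2 (262 ± 114 FPKM, mean ± SD, n = 3), Crabp1 (225 ± 86.3), Rdh10 (13.8 ± 4.63), Stra6 (4.98 ± 2.48), Aldh1a7 (3.92 ± 2.84), Dhrs3 (1.67 ± 0.930), Aldh1a2 (1.17 ± 1.24), Cyp26a1 (0.334 ± 0.118) and Cyp26b1 (0.199 ± 0.119). At this time the RA binding proteins ranked 374th and 457th among 22858 genes with a level above 0, and the cytochromes 16656th and 17600th. Crabp1 and Crabp2 overlapped, as did the neighbours from Stra6 to Aldh1a2 and the 2 cytochromes, while Rdh10 lay above every lower gene and below both binding proteins in all 3 libraries. At 6.5DDC the order was Crabp2 (70.5 ± 18.0), Crabp1 (36.0 ± 20.9), Dhrs3 (9.40 ± 6.61), Rdh10 (7.97 ± 4.73), Aldh1a2 (5.67 ± 4.80), Stra6 (3.82 ± 1.97), Aldh1a7 (0.561 ± 0.0773), Cyp26a1 (0.543 ± 0.139) and Cyp26b1 (0.381 ± 0.147). Crabp2 was above Crabp1 in all 3 libraries at this time. Dhrs3 had moved from the sixth to the third place and Aldh1a7 from the fifth to the seventh, but the ranges of Dhrs3, Rdh10, Aldh1a2 and Stra6 overlapped at 6.5DDC. Within each of the 3 libraries Dhrs3 was above Aldh1a2 and Stra6, and no other order among these genes held in all 3.

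**Figure D1:**
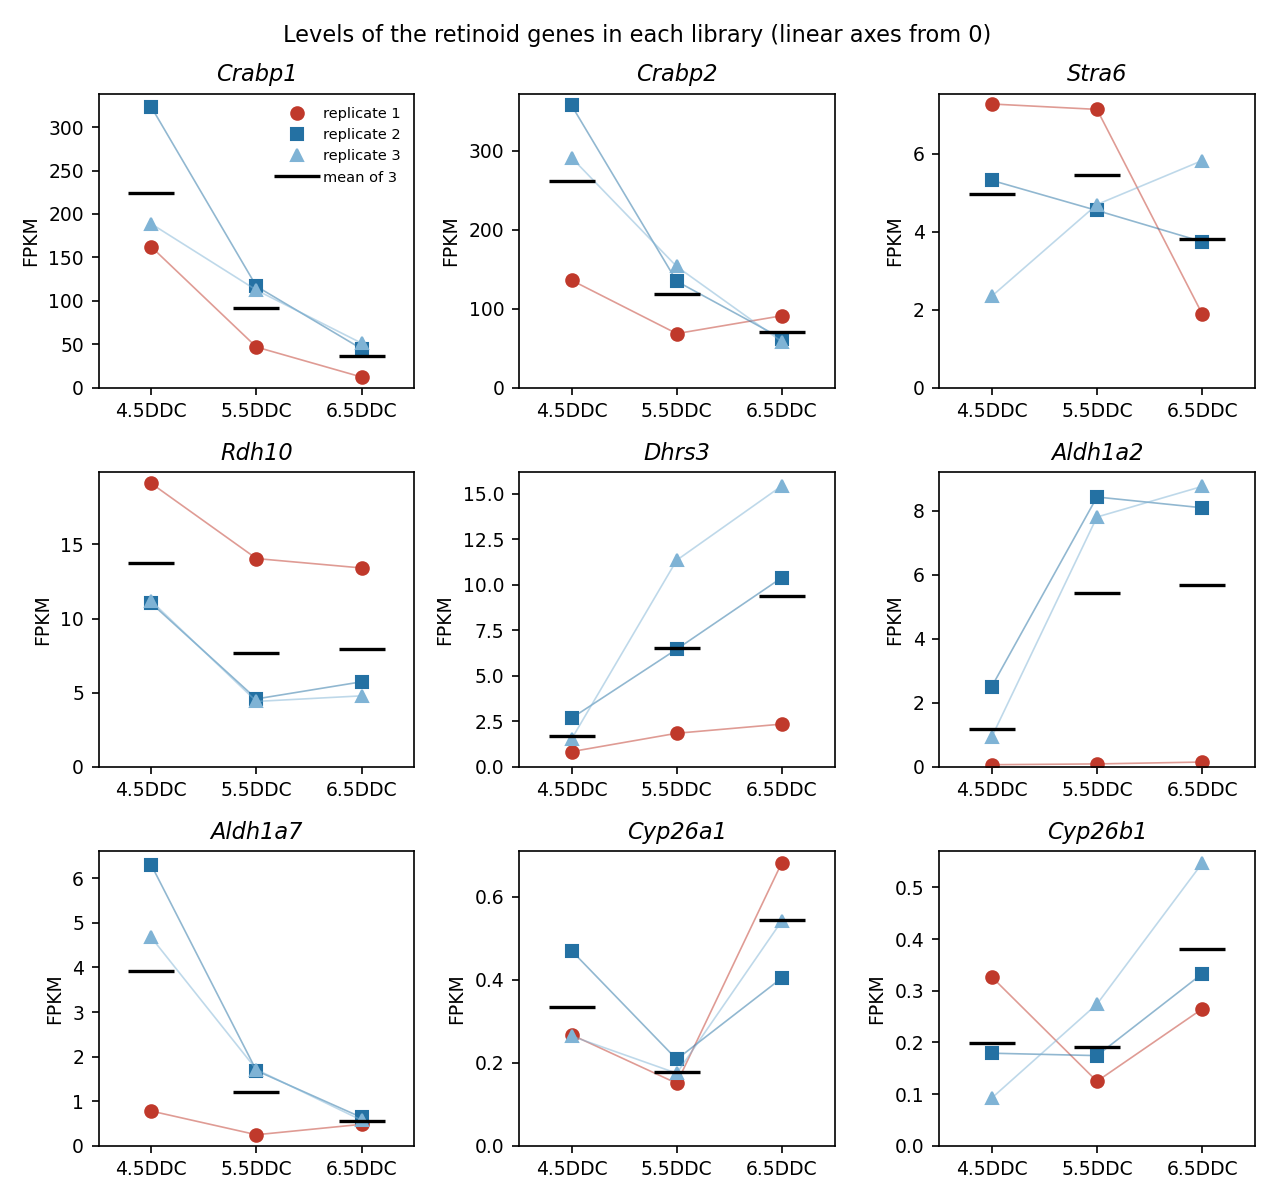
FPKM (y axes, linear from 0) of the 9 genes at 4.5DDC, 5.5DDC and 6.5DDC (x axes), with 1 symbol per library, lines joining libraries of the same replicate number and black bars for the mean of 3. Crabp1 and Crabp2 come down from at least 136 FPKM in every library at 4.5DDC to at most 91.1 FPKM at 6.5DDC, and replicate 1 lies near 0 for Aldh1a2 and above the others for Rdh10 at all 3 time points.

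The 2 cellular RA binding proteins carried the largest levels and both fell. Crabp1 was at 162, 323 and 189 FPKM in replicates 1 to 3 at 4.5DDC, at 46.7, 117 and 112 FPKM at 5.5DDC and at 12.2, 44.7 and 51.2 FPKM at 6.5DDC. All 3 libraries of 6.5DDC lay below all 3 of 4.5DDC, and replicate 1 was the lowest at each time. Over the whole span Crabp1 fell by 2.65 in log2 terms (SE 0.52, adjusted p = 0.00932, edgeR, with p-values adjusted over all genes tested). It was called in all 21 alternative analyses, with adjusted p between 9.77e-07 and 0.0369, and the fall was 3.65 within replicate 1 and 2.41 within replicates 2 and 3. Its level also fell from the 457th to the 3528th rank among genes with a level above 0.

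Crabp2, whose protein carries RA to its nuclear receptors, was at 136, 358 and 291 FPKM at 4.5DDC, at 68.5, 135 and 154 FPKM at 5.5DDC and at 91.1, 62.2 and 58.2 FPKM at 6.5DDC. Replicate 1 was the lowest library at 4.5DDC and 5.5DDC and the highest at 6.5DDC, and the libraries of 4.5DDC and 6.5DDC did not overlap. Over the whole span Crabp2 fell by 1.90 in log2 terms (SE 0.40, adjusted p = 0.0118, edgeR). Without replicate 2 of 6.5DDC the adjusted p was 0.0552, and the 20 other alternatives kept the call. The fall was 2.47 within replicates 2 and 3 but 0.52 within replicate 1. The difference between these changes was 1.95 on the log2 scale in edgeR, a comparison added after the data were seen. Replicate 1 has a single library at each time point and so no spread of its own, and no p-value is given.

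The summed level of Crabp1 and Crabp2 was 298, 681 and 480 FPKM at 4.5DDC, 115, 251 and 266 FPKM at 5.5DDC and 103, 107 and 109 FPKM at 6.5DDC. The sums that lay far apart at the first time point thus lay within 103 to 109 FPKM at the last. The make-up of the sum differed, since the ratio of Crabp1 to Crabp2 was 0.134 in replicate 1 at 6.5DDC against 0.718 and 0.880 in replicates 2 and 3, and between 0.647 and 1.19 in the 6 earlier libraries.

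Stra6, the retinol receptor, was at 7.27, 5.32 and 2.35 FPKM at 4.5DDC, at 7.14, 4.54 and 4.70 FPKM at 5.5DDC and at 1.89, 3.74 and 5.82 FPKM at 6.5DDC. The time points overlapped, and replicate 1 went from the highest library at 4.5DDC and 5.5DDC to the lowest at 6.5DDC while replicate 3 went from the lowest at 4.5DDC to the highest at 6.5DDC. The log2 difference from 4.5DDC to 6.5DDC was −0.43 (SE 0.44, adjusted p = 0.527, edgeR), with −1.90 within replicate 1 and 0.39 within replicates 2 and 3. The difference of these changes was −2.29 in edgeR, and no p-value is given because replicate 1 has a single library at each time point.

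Dhrs3 and Rdh10, which exchange retinol and retinal, differed in opposite directions by replicate number. Dhrs3, the retinal reductase, was at 0.827, 2.67 and 1.51 FPKM at 4.5DDC, at 1.84, 6.46 and 11.4 FPKM at 5.5DDC and at 2.34, 10.4 and 15.5 FPKM at 6.5DDC. Replicate 1 was the lowest at each time, and every replicate number had a higher level at each later time. The 6.5DDC value of replicate 1 lay within the range of 4.5DDC in FPKM. In CPM it was 4.36, above the highest of 4.5DDC, which was 3.74 in replicate 2. The log2 rise of Dhrs3 over the whole span was 2.67 (SE 0.71, adjusted p = 0.0297, edgeR), with 1.26 within replicate 1 and 2.82 within replicates 2 and 3. The call held in 13 of 21 alternatives and was lost with limma voom (adjusted p = 0.101), on log2 FPKM (0.102 with a pseudocount of 1 and 0.0944 with 0.1) and without any 1 library of 4.5DDC (0.0702 to 0.0833) or without replicate 2 or 3 of 6.5DDC (0.0907 and 0.0733).

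Rdh10, which oxidizes retinol to retinal, was at 19.1, 11.03 and 11.2 FPKM at 4.5DDC, at 14.0, 4.57 and 4.40 FPKM at 5.5DDC and at 13.4, 5.73 and 4.78 FPKM at 6.5DDC. Replicate 1 was the highest library at every time and its lowest value, 13.4 FPKM, lay above the highest of the other 6. The log2 difference from 4.5DDC to 6.5DDC was −0.74 (SE 0.54, adjusted p = 0.350, edgeR) in the fit of all 9 libraries without a block. Of 21 alternatives, 3 gave a call. These were the replicate block (−0.88, adjusted p = 0.0198), replicate 1 as a block (−0.87, adjusted p = 0.00945, edgeR) and the fit of replicates 2 and 3 only. All 3 set the replicate number apart or leave replicate 1 out. The replicate block is not a pairing that the data bear out for these time points. The split of replicate 1 was first seen in these same libraries, so these calls are a description. The level of Rdh10 was lower at 6.5DDC than at 4.5DDC for each replicate number. The ratio of Dhrs3 to Rdh10 in FPKM was 0.0432, 0.242 and 0.136 at 4.5DDC and 0.175, 1.82 and 3.23 at 6.5DDC. It was higher at 6.5DDC for each replicate number, and it was above 1 in replicates 2 and 3 of 5.5DDC and 6.5DDC and in no library of replicate 1.

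Aldh1a2, the main RA-synthesizing enzyme of the early embryo, was at 0.0611, 2.51 and 0.930 FPKM at 4.5DDC, at 0.0859, 8.43 and 7.81 FPKM at 5.5DDC and at 0.144, 8.10 and 8.76 FPKM at 6.5DDC. These levels rest on 3, 78 and 37 counts at 4.5DDC, 6, 267 and 235 at 5.5DDC and 5, 369 and 382 at 6.5DDC. Replicate 1 was near the floor of detection at each time, although its 5.5DDC library was the deepest of the 9, and the 4 later libraries of replicates 2 and 3 lay within 7.81 to 8.76 FPKM. The log2 difference from 4.5DDC to 6.5DDC was 2.29 with a large error (SE 1.52, adjusted p = 0.307, edgeR). With replicates 2 and 3 only, a fit added after the data were seen, it was 2.28 (adjusted p = 0.00365, edgeR). In fits of all 9 libraries it was 2.26 under the replicate block (adjusted p = 0.00409, edgeR). Under replicate 1 as a block it was 2.21 (adjusted p = 0.00215, edgeR). The replicate block is not a pairing that the data bear out for these time points. The split of replicate 1 was first seen in these same libraries.

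Aldh1a7, a close paralogue of Aldh1a1 that is not established as a retinal-oxidizing enzyme, was at 0.777, 6.30 and 4.67 FPKM at 4.5DDC, at 0.245, 1.68 and 1.71 FPKM at 5.5DDC and at 0.479, 0.633 and 0.571 FPKM at 6.5DDC. Every library of 6.5DDC lay below every library of 4.5DDC, and replicate 1 was the lowest at each time. The levels at 6.5DDC rest on 14, 25 and 21 counts. Aldh1a7 fell by 2.82 in log2 terms between the outer time points (SE 0.82, adjusted p = 0.0402, edgeR), with a fall of 0.62 in replicate 1 and of 3.12 in replicates 2 and 3. The call held in 11 of 21 alternatives and was lost with limma voom (adjusted p = 0.169), on log2 FPKM (0.0797 and 0.0990 with pseudocounts of 1 and 0.1) and without any 1 of 7 libraries (0.0541 to 0.132), namely replicates 2 and 3 of 4.5DDC, replicates 2 and 3 of 5.5DDC and each of 6.5DDC.

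Together, Aldh1a1, Aldh1a2, Aldh1a3 and Aldh1a7 summed to 1.11, 10.9 and 6.67 FPKM at 4.5DDC, 0.593, 10.7 and 10.02 FPKM at 5.5DDC and 1.15, 9.60 and 10.1 FPKM at 6.5DDC. In replicates 2 and 3, Aldh1a7 made up most of the sum at 4.5DDC and Aldh1a2 most of it at 5.5DDC and 6.5DDC. In replicate 1 no member exceeded 0.777 FPKM at any time.

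**Figure D2:**
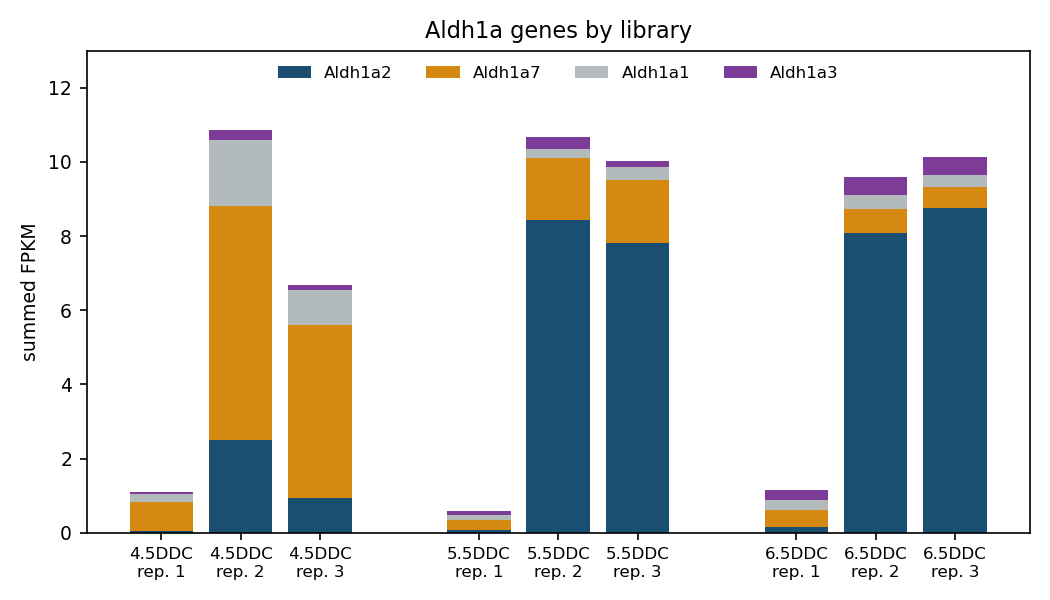
Stacked bars of FPKM (y axis, from 0) of Aldh1a2, Aldh1a7, Aldh1a1 and Aldh1a3 in each of the 9 libraries (x axis, time point and replicate). Replicates 2 and 3 sum to 6.67 to 10.9 FPKM, with Aldh1a2 in place of Aldh1a7 as the tallest segment from 5.5DDC, and replicate 1 sums to 0.593 to 1.15 FPKM.

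The RA-degrading cytochromes were low throughout. Cyp26a1 was at 0.267, 0.470 and 0.264 FPKM at 4.5DDC, at 0.150, 0.208 and 0.174 FPKM at 5.5DDC and at 0.682, 0.404 and 0.542 FPKM at 6.5DDC, from between 4 and 18 counts per library. All 3 libraries of 5.5DDC lay below those of both other times, and replicate 1 was not set apart. The log2 differences were −0.94 from 4.5DDC to 5.5DDC (SE 0.45, adjusted p = 0.358), 1.64 from 5.5DDC to 6.5DDC (SE 0.44, adjusted p = 0.138) and 0.71 over the whole span (SE 0.41, adjusted p = 0.246), none of them called by edgeR's test. Cyp26b1, the paralogue prominent in hindbrain and limb, was at 0.327, 0.179 and 0.0922 FPKM at 4.5DDC, at 0.125, 0.174 and 0.274 FPKM at 5.5DDC and at 0.265, 0.333 and 0.547 FPKM at 6.5DDC, from 8 to 52 counts. The time points overlapped, and the log2 difference from 4.5DDC to 6.5DDC was 0.91 (SE 0.50, adjusted p = 0.221, edgeR), with −0.23 within replicate 1 and 1.53 within replicates 2 and 3. The summed level of Cyp26a1, Cyp26b1 and Cyp26c1 did not exceed 1.09 FPKM in any library, including the earliest.

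Over the whole span, 4 of the 9 genes were called (Crabp1, Crabp2 and Aldh1a7 lower, Dhrs3 higher at 6.5DDC), where 18.7% of the 14742 genes tested were called, 9.21% higher and 9.53% lower. The median log2 fold change of the 9 was −0.43, and 0.0040 over all genes tested. The FPKM values of 4.5DDC and 6.5DDC did not overlap for 3 of the 9, Crabp1, Crabp2 and Aldh1a7, all lower at 6.5DDC, and this was the case for 16.7% of all genes in that direction and for 17.9% in the other. With 3 libraries against 3, a two-sided exact permutation test cannot give a p below 0.1, and each of these 3 genes had that p. With replicates 2 and 3 only, 7 were called against 31.3%, which added Aldh1a2, Rdh10 (log2 difference −1.08, adjusted p = 0.00521) and Cyp26b1 (1.67, adjusted p = 0.0264) to the 4, all by edgeR. In the test of any difference among the 3 time points, Crabp1 (adjusted p = 0.0260) and Crabp2 (adjusted p = 0.0309, edgeR) were called, 2 of 9 against 9.63% of all genes. With the replicate number added to the model, 6 of 9 were called, against 2180 of the 14742 genes. This added Aldh1a2 (adjusted p = 0.0104), Aldh1a7 (0.0171), Rdh10 (0.0209) and Dhrs3 (0.00557, edgeR). Of 19 alternatives, 16 kept the call of Crabp1, which was lost without replicate 2 or 3 of 4.5DDC (0.0972 and 0.0613) or replicate 2 of 6.5DDC (0.0822), and 12 kept that of Crabp2, which was lost on log2 FPKM (0.0544 and 0.0542 with pseudocounts of 1 and 0.1) and without replicate 2 or 3 of 4.5DDC, replicate 2 of 5.5DDC or replicate 2 or 3 of 6.5DDC (0.0533 to 0.119).

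**Figure D3:**
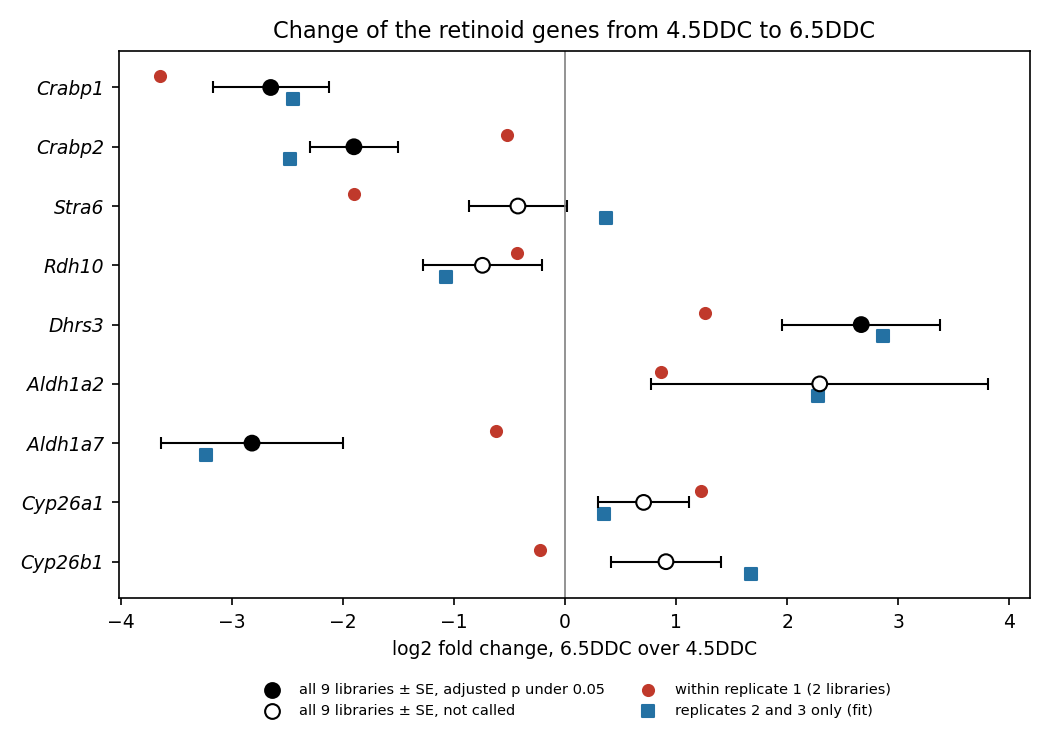
Log2 fold change of each gene from 4.5DDC to 6.5DDC (x axis) in the fit of all 9 libraries (black, bars ± SE, filled where the adjusted p is under 0.05), within replicate 1 alone (red circles) and in the fit of replicates 2 and 3 only (blue squares). Crabp1, Crabp2 and Aldh1a7 are filled and to the left of 0 and Dhrs3 is filled and to the right, and for Stra6 and Cyp26b1 the red and blue points lie on opposite sides of 0.

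The shorter intervals gave no call among the 9 in the fit of all libraries. From 4.5DDC to 5.5DDC, 0 of 9 were called by edgeR (0.0746% of all genes) and 0 of the 7 with an adjusted p by DESeq2 (3.8% of genes with one), while 4 had an unadjusted p under 0.05, Crabp1, Crabp2, Aldh1a7 and Dhrs3 (15.4% of all genes). From 5.5DDC to 6.5DDC, 0 of 9 were called by edgeR (0.224%) and 0 of the 8 with an adjusted p by DESeq2 (4.77% of genes with one), and 2 had an unadjusted p under 0.05, Crabp1 and Cyp26a1 (18.5%). DESeq2 gave Cyp26a1 no adjusted p in either interval and Cyp26b1 none in the first. Libraries of the same replicate number deviated together between adjacent time points. Replicates 2 and 3 also deviated together with each other, so that mainly replicate 1 was set apart. With this limit, the replicate number was also used as a block. The block gave 3 calls from 4.5DDC to 5.5DDC (1.44% of all genes), Crabp1 (−1.42, adjusted p = 0.0342), Aldh1a2 (2.09, adjusted p = 0.0366) and Dhrs3 (1.76, adjusted p = 0.0382), and 1 from 5.5DDC to 6.5DDC (1.32%), Crabp1 (−1.40, adjusted p = 0.0394, edgeR). With replicates 2 and 3 only, 6 genes were called in the first interval (3.31% of all genes), namely Crabp1, Crabp2, Aldh1a2, Aldh1a7, Rdh10 and Dhrs3, and 3 in the second (4.97%), namely Crabp1, Crabp2 and Aldh1a7. In that fit Aldh1a2 changed by 2.21 in the first interval and its difference in the second was 0.06 (adjusted p = 0.927), whereas Crabp1 fell by 1.20 and then by 1.25.

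The replicate number was tested in the same way, with the time point in the model. The 9 genes were chosen with earlier results of these data known. The counts of calls among them, here and over time, are therefore a description. Any difference between the 3 numbers was called for 4 of the 9 genes, Aldh1a2 (adjusted p = 0.00136), Rdh10 (0.00993), Dhrs3 (0.0192) and Crabp1 (0.0315, edgeR), against 5.41% of all genes. Of 17 alternatives, this call held in 17 for Aldh1a2, 16 for Rdh10 (0.0747 without replicate 1 of 5.5DDC), 13 for Dhrs3 and 7 for Crabp1. Dhrs3 lost it on log2 FPKM (0.0970 and 0.0645 with pseudocounts of 1 and 0.1) and without replicate 1 of 5.5DDC (0.123) or of 6.5DDC (0.0610). Crabp1 lost it without scaling (0.0626), with limma voom (0.0614), on log2 FPKM (0.102 and 0.0973) and without replicate 2 of 4.5DDC, any 1 library of 5.5DDC or replicate 1 or 2 of 6.5DDC (0.0552 to 0.157). The split of replicate 1 from replicates 2 and 3 was first seen in these same libraries, so its values are a description. By that contrast 5 of the 9 were called, 4 lower and 1 higher in replicate 1, where 9.7% of all genes were called, 5.45% lower and 4.25% higher.

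Aldh1a2 had the largest such difference among the 9, at −5.90 on the log2 scale (SE 0.43, adjusted p = 0.000349, edgeR), and it was called in all 17 alternatives. Its CPM in replicates 2 and 3 was 26.6 times that of replicate 1 at 4.5DDC (exact 95% interval 8.89 to 131), 94.3 times at 5.5DDC (43.0 to 258) and 59.6 times at 6.5DDC (25.4 to 184), with intervals that cover counting error only. Dhrs3 was lower by 1.84 in replicate 1 (log2 difference −1.84, SE 0.30, adjusted p = 0.00558) and Rdh10 higher by 1.32 (SE 0.18, adjusted p = 0.00272, edgeR), both called in all 17 alternatives. Crabp1 differed by −1.24 (SE 0.23, adjusted p = 0.00969, edgeR), lost only without replicate 1 of 5.5DDC (0.0525). Aldh1a7 differed by −2.08 (SE 0.48, adjusted p = 0.0232, edgeR), called in 12 of 17 alternatives. It was lost on log2 FPKM (0.0889 and 0.0595 with pseudocounts of 1 and 0.1) and without replicate 1 or 2 of 4.5DDC (0.185 and 0.0627) or replicate 1 of 5.5DDC (0.143). The CPM of Aldh1a7 in replicates 2 and 3 was 6.93 times that of replicate 1 at 4.5DDC and 6.83 times at 5.5DDC. At 6.5DDC it was 1.30 times (exact 95% interval 0.704 to 2.57), so counting error alone covers equal levels there.

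In FPKM, replicate 1 lay below both other replicates at all 3 time points for Crabp1, Aldh1a2, Aldh1a7 and Dhrs3, which was so for 11.8% of all genes, and above them for Rdh10, which was so for 10.1%. Crabp2 (−0.50, adjusted p = 0.476), Stra6 (0.37, adjusted p = 0.706), Cyp26a1 (0.01, adjusted p = 0.993) and Cyp26b1 (−0.04, adjusted p = 0.983, edgeR) were not called, and each of these 4 had replicate 1 above both other libraries at 1 or more time points and below them at another. Without replicate 1 of 6.5DDC, Crabp2 was called lower in replicate 1 (adjusted p = 0.00404, edgeR). The comparison of changes over time that follows has a single library of replicate 1 at each time point. Replicate 1 has no spread of its own there, so the error comes from replicates 2 and 3 only. Replicate 1 was also picked out from these same libraries. The comparison therefore cannot decide whether any gene changed differently in replicate 1, and its counts are a description only. Whether the change from 4.5DDC to 6.5DDC differed between replicate 1 and the other 2 was called for 0 of the 9 and for 0.0204% of all genes by edgeR. An unadjusted p under 0.05 in that test was found for 6, Crabp1, Crabp2, Stra6, Cyp26b1, Aldh1a7 and Dhrs3, and for 15.8% of all genes.

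**Figure D4:**
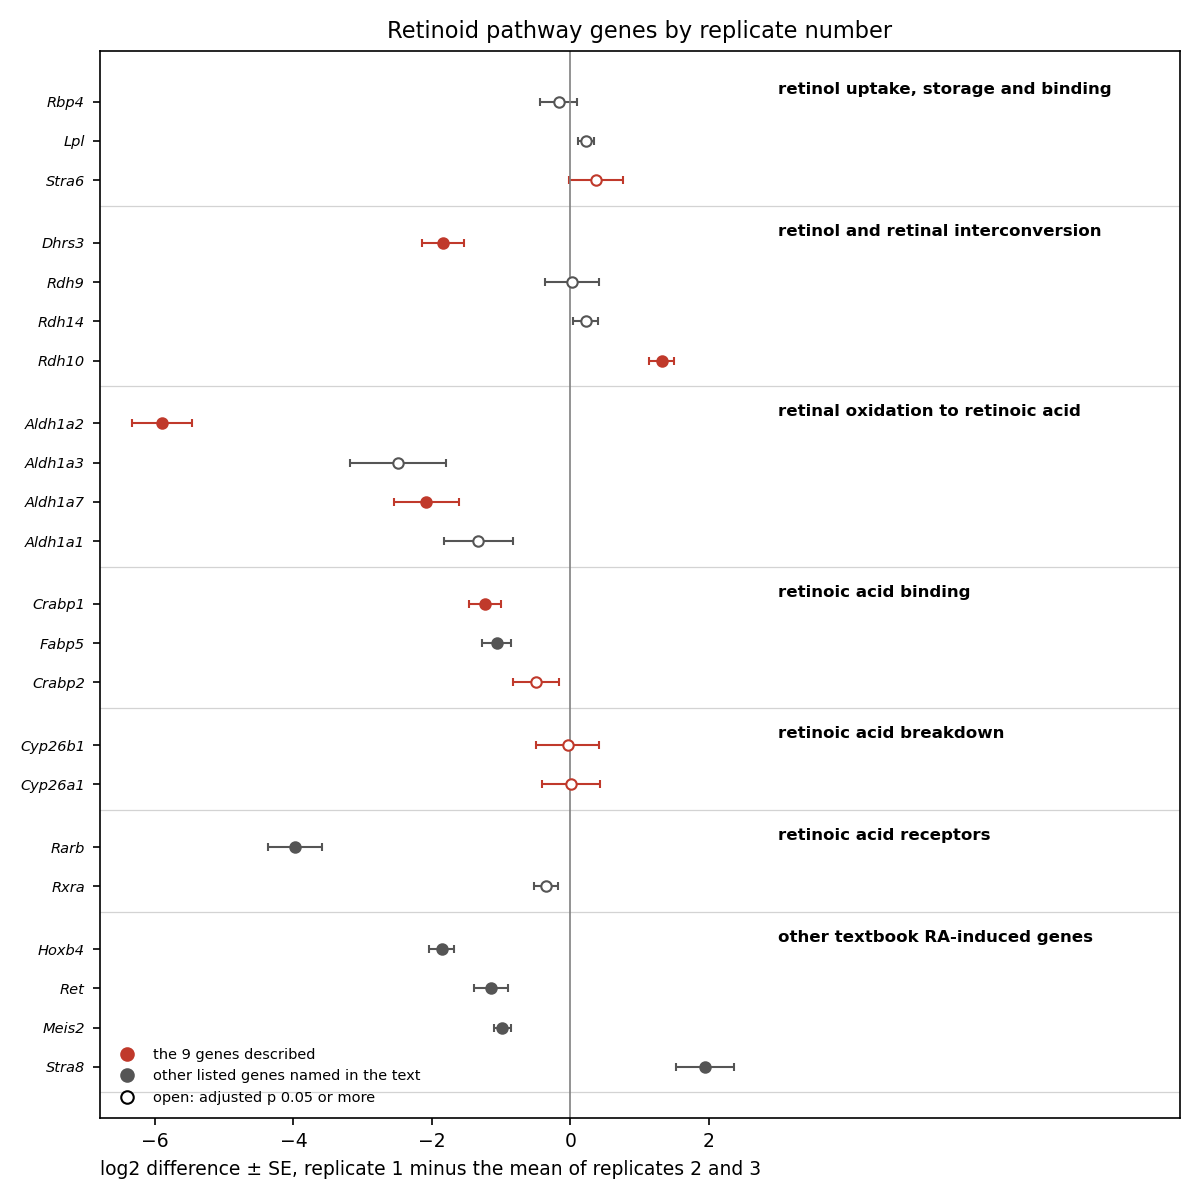
Log2 difference of replicate 1 minus the mean of replicates 2 and 3 (x axis, bars ± SE) for the 9 genes described (red) and the other tested genes of the pathway lists that the text names (grey), grouped by role, with filled symbols for an adjusted p under 0.05. Aldh1a2 lies farthest to the left at −5.90 and Rarb next at −3.98, and of the 9 only Rdh10 is filled to the right of 0.

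Among further genes of the pathway, a lipase and a retinol carrier rose over the whole span. Of 43 further genes listed for uptake, storage, interconversion, oxidation, binding, breakdown and reception, 41 were in the tables and 23 were tested, of which 5 rose from 4.5DDC to 6.5DDC and the other 18 were not called, where 9.21% of all genes were called higher and 9.53% lower. Lpl, a lipase that takes part in the uptake of retinyl esters, rose by 1.43 (SE 0.15, adjusted p = 0.000956), from 29.0, 23.1 and 21.1 FPKM to 72.1, 63.8 and 59.997 FPKM. Rbp4, the retinol carrier of the blood, rose by 1.61 (SE 0.31, adjusted p = 0.00816), and Rdh14 by 0.72 (SE 0.21, adjusted p = 0.0419, edgeR). Rdh9 and Aldh1a3 were the other 2 called, at no more than 0.505 FPKM in any library, and the fitted change of Aldh1a3 rests on 1, 0 and 1 counts at 4.5DDC. The 6 nuclear receptor genes were not called over this span, with adjusted p between 0.0841 (Rxra) and 0.862 (Rarb) by edgeR's test.

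By replicate number, 3 of these 23 genes were lower in replicate 1 and the other 20 were not called, where 5.45% of all genes were called lower and 4.25% higher. Rarb, a receptor gene that RA itself induces, was at 0.919, 9.22 and 11.6 FPKM at 4.5DDC, at 0.198, 8.98 and 8.54 FPKM at 5.5DDC and at 0.799, 9.03 and 7.63 FPKM at 6.5DDC, a log2 difference of −3.98 (SE 0.39, adjusted p = 0.000748, edgeR). Fabp5, another carrier of RA, differed by −1.07 (SE 0.21, adjusted p = 0.0112, edgeR). For both genes replicate 1 was below both other libraries at every time point.

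A list of 18 textbook RA-induced genes, which holds 4 of the 9 (Cyp26a1, Stra6, Dhrs3 and Crabp2), had 15 members tested, of which 7 were lower and 1 higher in replicate 1, against the same shares of all genes, 5.45% and 4.25%. Besides Dhrs3 and Rarb, the lower genes included the homeobox genes Hoxb4 (−1.86, adjusted p = 0.000672) and Meis2 (−0.98, adjusted p = 0.00156) and the receptor tyrosine kinase gene Ret (−1.14, adjusted p = 0.0178, edgeR). The gene that was higher, Stra8, did not exceed 1.01 FPKM and is named only because it was the single one. The median difference of the list was −0.50, and 0.01 over all genes tested. Cyp26a1, the gene with the DR5 in its promoter, was not called.

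Cell type markers differed along with the replicate number, by which 5.45% of all genes were called lower and 4.25% higher in replicate 1. Of 10 progenitor genes tested, Fabp7 (−1.08, adjusted p = 0.0282) and Nkx2-2 (−0.86, adjusted p = 0.0134, edgeR) were lower in replicate 1. Of 6 floor plate genes, 2 were higher in it, among them Lmx1b (0.82, adjusted p = 0.0243, edgeR). Of 9 neuronal genes tested, 8 were lower in replicate 1, and their summed level was 192 to 405 FPKM in replicate 1 and 372 to 914 FPKM in the other 6 libraries. Of 6 endoderm genes tested, 5 were higher in replicate 1, with sums of 46.0 to 68.3 FPKM against 23.1 to 36.9 FPKM, most of it from Foxa1, which the floor plate also expresses, while Sox17 stayed at or below 0.529 FPKM and Afp at or below 0.569 FPKM. Of 8 neural crest and mesenchyme genes tested, 3 were lower in replicate 1, with sums over the list of 52.9 to 56.4 FPKM in replicate 1 and 33.9 to 85.1 FPKM in the other 6 libraries. Acta2, a smooth muscle actin, was at 9.32 to 70.2 FPKM and the collagen gene Col3a1 at 0.235 to 30.4 FPKM, while the crest genes Sox10 and Foxd3 were at or below 0.0377 FPKM. Mesoderm genes, 5 of them tested and 1 of these higher in replicate 1, summed to 1.53 to 3.70 FPKM in any library, and 1 of 2 tested genes of pluripotent cells was higher in replicate 1. Over time, where 9.21% of all genes were called higher and 9.53% lower at 6.5DDC, 2 of 9 neuronal, 4 of 6 floor plate, 2 of 5 mesoderm and 1 of 8 crest and mesenchyme genes rose from 4.5DDC to 6.5DDC. Among the progenitor genes Prom1 rose (1.19, adjusted p = 0.00363), and Sox3 (−1.80, adjusted p = 0.0330) and Nkx6-1 (−1.14, adjusted p = 0.0220, edgeR) fell. The summed neuronal level went from 205 to 530 FPKM at 4.5DDC to 405 to 914 FPKM at 6.5DDC. In bulk RNA, fewer cells of a type and less RNA per cell cannot be told apart, and the part of these markers in the results on the 9 genes was not tested.

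Of the 9 genes, 6 fell into groups by their pattern over the 9 libraries, given here as Pearson's r of log2 CPM and as a description of libraries that share time points and replicate numbers. Aldh1a2 and Dhrs3 varied together (r = 0.85) and both ran against Rdh10 (r = −0.94 and −0.93). Aldh1a7 varied with Crabp2 (r = 0.93) and Crabp1 with both (r = 0.80 with Aldh1a7 and 0.78 with Crabp2). For Stra6, Cyp26a1 and Cyp26b1, r with any other of the 9 lay between −0.57 and 0.53. Among 12409 or 12410 other genes of at least 2 FPKM at some time point, the nearest to Crabp1 were Phox2a (r = 0.99), Mapk12 (0.98) and Fzd7 (0.98), and the nearest to Crabp2 were Selrc1, G3bp1 and Eif3b (each 0.99). Aldh1a2 was nearest to Maneal (0.99), Fam78b (0.98) and Ap3b2 (0.98), Dhrs3 to Fam189a1 (0.99), Ncan (0.99) and Map6 (0.98), and Rdh10 to Mme (0.97), Anxa3 (0.97) and Tex13 (0.96). Aldh1a7 was nearest to Homer2 (0.98), Gm12611 (0.97) and Ubqln1 (0.96), and Stra6 to Igsf9b, Numbl and 1600016N20Rik (each 0.95). The cytochromes had less similar neighbours, Wdr41 (0.93), Ngrn (0.91) and Prkaa2 (0.89) for Cyp26a1 and Atp8a2 (0.91), Nsun4 (0.88) and Ptprm (0.88) for Cyp26b1.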

How the data were processed

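The authors mapped single-end reads to GRCm38 with TopHat2 2.0.4, counted reads per gene with HTSeq 0.6.1 and computed FPKM with Cufflinks 2.1.1, per the labels and the methods of the study. The gene annotation and whether counting used the strand are not given in the sources used here. The deposited counts are not normalized and are whole except for 98 of the 38197 symbols, as in expected counts, none of them described here. The choice of tests assumed whole counts, and the values were therefore rounded. Levels are the deposited FPKM values. The deposited log2 values, which the authors made with limma voom, were only checked against the counts.

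After filterByExpr by time point and TMM scaling, genes were tested with edgeR 4.0.16 (quasi-likelihood) in R 4.3.3, in 1 fit of all 9 libraries with the time point as factor, and again with the replicate number added. The residual degrees of freedom were 6 and 4. P-values were adjusted over all 14742 genes by the Benjamini-Hochberg method and called under 0.05. For FPKM values, exact permutation tests (two-sided) were used. Alternatives were other scalings and filters, limma 3.58.1 (voom, and log2 FPKM with pseudocounts of 1 and 0.1), DESeq2 1.42.0, fits of fewer libraries, blocks and each library left out in turn. Within-replicate differences and correlations used log2 CPM with a prior count of 2. Tables and plots used Python 3.11.15, matplotlib 3.10.9, scipy 1.17.1, numpy 2.4.6 and pandas 2.3.3.

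The replicate numbers come from the sample labels, which do not say what libraries of 1 number share. The correlation, across genes, of deviations from the time point's mean in same-numbered libraries was 0.386 to 0.743 for 4.5DDC with 5.5DDC, 0.197 to 0.454 for 5.5DDC with 6.5DDC and −0.215 to 0.383 for 4.5DDC with 6.5DDC. As all 6 values of adjacent time points were above 0.1, the number was taken as a pairing there and not for the outer pair, for which the block is only an alternative. Differently numbered libraries of adjacent time points gave −0.653 to −0.245 where replicate 1 was one of them and 0.225 to 0.405 for replicate 2 with 3, in part above the same-number values, so that mainly replicate 1 is set apart.

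The 9 genes and all gene lists were chosen with earlier results of these data known. Genes named beside the 9 are listed pathway genes called from 4.5DDC to 6.5DDC or whose mean reached 2 FPKM at a time point, listed markers and, per gene, the 3 genes with the highest correlation over the libraries. Values of some listed genes are counted in the lists but not reported here.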

Additional observations from a re-analysis of the deposited data

How the results depend on the processing

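Counts below are of genes with an adjusted p under 0.05, and members are the 9 retinoid genes. The shorter intervals depended most on the processing. From 4.5DDC to 5.5DDC, where edgeR called 11 genes and 0 members, 25 genes were called without a filter on low counts, 495 with DESeq2, 7 on log2(FPKM + 1), 1 in the fit of the 6 libraries compared, 212 (3 members) with the replicate block, 484 (4 members) with replicate 1 as a block and 485 (6 members) with replicates 2 and 3 only, a fit chosen after the data were seen. From 5.5DDC to 6.5DDC, where 33 genes and 0 members were called, the counts were 55 without scaling, 78 without the filter, 662 with DESeq2, 12 and 0 on log2 FPKM with pseudocounts of 1 and 0.1, 0 in the fit of 6 libraries, 195 (1 member) with the replicate block, 634 (1 member) with replicate 1 as a block and 728 (3 members) with replicates 2 and 3 only. From 4.5DDC to 6.5DDC, 2763 genes became 4382 with replicate 1 as a block and 4586 with replicates 2 and 3 only. The 4 members became 7 in the latter fit and 2 with limma voom, 2 on log2(FPKM + 1) and 2 on log2(FPKM + 0.1). With the replicate block, which is not a pairing the data bear out for these time points, 6 members were called, adding Aldh1a2 (2.26, adjusted p = 0.00409) and Rdh10 (−0.88, adjusted p = 0.0198, edgeR). Replicate 1 as a block also gave 6 members, adding Aldh1a2 (2.21, adjusted p = 0.00215) and Rdh10 (−0.87, adjusted p = 0.00945, edgeR).

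Across the 3 time points, 1420 genes and 2 members became 2975 and 4 with DESeq2, 2180 and 6 with the replicate block, 3316 and 6 with replicates 2 and 3 only, and 1 member on log2 FPKM with either pseudocount. Between replicate numbers, 798 genes became 1273 without the filter, 1255 with DESeq2, and 224 and 276 on log2 FPKM with pseudocounts of 1 and 0.1, with 2 members in place of 4 in both. For replicate 1 against 2 and 3, 1430 genes became 787 and 890 on log2 FPKM.

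With each library left out in turn, the counts of genes ranged from 1 to 28 (4.5DDC to 5.5DDC), 0 to 196 (5.5DDC to 6.5DDC), 1125 to 3132 (4.5DDC to 6.5DDC), 323 to 1831 (across time points), 206 to 1248 (between replicate numbers) and 645 to 1929 (replicate 1 against 2 and 3). Members ranged from 0 to 0, 0 to 0, 1 to 4, 0 to 4, 1 to 5 and 3 to 6 in the same order, and the lowest count over the whole span was without replicate 2 of 6.5DDC.

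Among single members, 909 values under an alternative kept direction and call, 47 passed the threshold newly, 50 no longer passed it and 28 changed sign. None of the sign changes was of a called value. They were Cyp26a1 by replicate number (−0.015 without scaling, −0.00093 without the filter, −0.032 with voom, −0.017 with DESeq2 and −0.023 on log2(FPKM + 0.1)), Cyp26b1 from 4.5DDC to 5.5DDC (0.0035 on log2(FPKM + 0.1) and 0.70 with replicates 2 and 3 only), Rdh10 from 5.5DDC to 6.5DDC (−0.075 with voom) and Stra6 from 4.5DDC to 6.5DDC (0.37 with replicates 2 and 3 only). With 1 library left out, the log2 differences that changed sign ranged from −0.11 to 0.73 (Stra6, 4.5DDC to 5.5DDC), −0.81 to 0.090 (Stra6, 4.5DDC to 6.5DDC), −0.13 to 0.92 (Stra6, replicate 1 against 2 and 3), −0.49 to 0.43 (Cyp26b1, 4.5DDC to 5.5DDC), −0.72 to 0.31 (Cyp26b1, replicate 1), −0.40 to 0.23 (Cyp26a1, replicate 1), −0.50 to 0.66 (Aldh1a2, 5.5DDC to 6.5DDC) and −0.56 to 0.90 (Rdh10, 5.5DDC to 6.5DDC). The cause of these shifts was not tested. Low counts limit Cyp26a1 and Cyp26b1, Aldh1a2 in replicate 1, and Aldh1a7 in replicate 1 and at 6.5DDC.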

Other observations

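Counts and FPKM of Aldh1a3, the third retinal dehydrogenase gene, did not run in parallel. At 4.5DDC replicates 1 to 3 held 1, 0 and 1 counts but 0.0544, 0.269 and 0.116 FPKM, and at 6.5DDC 4, 27 and 33 counts and 0.271, 0.505 and 0.491 FPKM. Its mean FPKM was 2.88 times as high at 6.5DDC, while the fitted change in counts was 4.65 on the log2 scale (SE 1.16, adjusted p = 0.0236, edgeR), a value that depends on the prior count. The 3 libraries of 6.5DDC lay above those of 4.5DDC in both units.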
